A study of Mus musculus with 8 samples.

Results

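The genes described here are 10 genes of blood vessel cells and of the signals that shape blood vessels, chosen by name from the 36536 genes listed in the count tables. They are *Vegfa*, *Angpt1* and *Angpt2*, which encode secreted ligands, *Kdr*, *Flt1*, *Tek* and *Tie1*, which encode receptors, and *Pecam1*, *Emcn* and *Eng*, which encode surface proteins of endothelial cells. RNA-seq libraries had been made from cells of the neonatal mouse cochlea sorted by the brightness of an *Lfng-GFP* BAC transgene (B6;FVB-Tg(Lfng-EGFP)HM340Gsat/Mmucd), which all mice carried. The 4 groups, with 2 libraries each, were the cells with the brightest fluorescence (GFP+) and the cells without it (GFP-) at postnatal day 1 (P1), and the same fractions at postnatal day 6 (P6), all freshly isolated, with no culture or treatment. The transgene marks most supporting cell types, such as Deiters' cells and border cells, but not inner pillar cells, and dimly fluorescent cells were not collected. The study's methods describe taking the stria vascularis, Reissner's membrane and lateral wall off the P0 or P1 organ but only part of them off the older organ, so age and dissection cannot be told apart, above all in the GFP- cells, which held the other cochlear cells. By the numbers of cells that the paper gives per cochlea and per library, each GFP+ library was a pool from many cochleas. Nothing in the sources used here says that the 2 libraries of a group came from different animals, so the p-values measure only the spread between these libraries.

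The organ of Corti itself has few vessels. Capillaries run below the basilar membrane and in the spiral limbus, and the densest bed is that of the stria vascularis in the lateral wall. VEGF-A, the ligand encoded by *Vegfa*, acts on endothelial cells through VEGFR2 (*Kdr*), while VEGFR1 (*Flt1*) binds the same ligand tightly and limits its action. Angiopoietin-1 activates the receptor TIE2 (*Tek*) and steadies vessels, angiopoietin-2 can oppose it, and TIE1 is a partner of TIE2 with no ligand of its own.

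The libraries held 17769024 to 67695039 counts on genes, and levels are given as counts per 1000000 (CPM) of a library size scaled by TMM, which sets the libraries to a common level over most genes. The 8 supporting cell markers were measured in every library, and their summed level was 8007 and 8303 CPM in the P1 GFP+ libraries against 415 and 504 in P1 GFP- cells, and 7396 and 5351 in the P6 GFP+ libraries against 549 and 494 in P6 GFP- cells. Replicate 2 of the P6 GFP+ group stood apart. The 751 genes that passed edgeR's test at P1 and were 16-fold or more higher in P1 GFP- than in P1 GFP+ cells were compared. Their median log2 level in this library was 1.68 above that in replicate 1, whereas the P1 GFP+ replicates differed by -0.04. The genes were chosen on the P1 libraries, which favours agreement of the P1 replicates. Results that rest on this library are given with and without it. Replicate 2 of the P1 GFP- group had more of the 6 spiral ganglion neuron markers, 530 CPM in sum against 155 CPM in replicate 1.

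At P1 the endothelial receptors and surface proteins were all lower in GFP+ than in GFP- cells, and the ligand *Angpt1* was the only one of the 10 genes that was higher. All 10 genes passed the test (adjusted p below 0.01, edgeR's quasi-likelihood test with Benjamini-Hochberg adjustment over 18682 genes), 9 of them lower, beside 37.3% of all genes tested in either direction and 20.7% in the lower direction. Of the 10, 6 also differed by more than 4-fold, beside 17.8% of all genes tested. When 1 P1 library at a time was left out, all 10 genes kept their direction. The log2 fold change ranged from -0.77 to -0.59 for *Vegfa* and from 3.34 to 3.46 for *Angpt1*. Without P1 GFP+ replicate 1, *Pecam1* and *Vegfa* lost the call (8 of 10, beside 19.2% of all genes tested), and without replicate 2, *Pecam1*, *Flt1* and *Vegfa* did (7 of 10, beside 19%). With all 8 libraries in 1 fit, *Pecam1*, *Kdr* and *Flt1* lost it (7 of 10, beside 31.5%). The 2 libraries of one fraction lay apart from those of the other for 10 of the 10 genes, as they did for 79.5% of all genes tested. The median log2 fold change was -1.96 over the 10 genes and 0.01 over all genes tested. In these bulk libraries a lower level through fewer cells of a type and through less RNA per cell cannot be told apart.

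*Vegfa* was measured at 93.8 and 94.5 CPM in the P1 GFP+ libraries and at 161 and 141 CPM in the P1 GFP- libraries. It was 1.58-fold lower in GFP+ cells (log2 fold change -0.66, SE 0.10, adjusted p = 0.00251, edgeR), the smallest difference among the 10 genes. *Angpt1* was at 148 and 146 CPM in GFP+ cells and at 13.4 and 14.5 CPM in GFP- cells, which was a 10.7-fold higher level in GFP+ cells (log2 fold change 3.42, SE 0.09, adjusted p = 9.99e-06, edgeR). Within each fraction the replicates lay close together for both ligands, with *Vegfa* below and *Angpt1* above the GFP- libraries in both GFP+ libraries. *Angpt2* had few counts there, 92 and 27 reads, or 1.99 and 1.04 CPM, against 10.1 and 8.96 CPM in GFP- cells (log2 fold change -2.59, SE 0.32, adjusted p = 0.00109, edgeR).

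Among the receptors, *Tek* had the widest gap between the fractions at P1, with 3.15 and 2.98 CPM in GFP+ cells against 30.9 and 27.5 CPM in GFP- cells, a 9.40-fold lower level (log2 fold change -3.23, SE 0.15, adjusted p = 3.03e-05, edgeR). *Tie1* was at 3.43 and 3.48 CPM against 14.8 and 15.8 CPM (log2 fold change -2.13, SE 0.16, adjusted p = 0.000138, edgeR). Both TIE receptors were lower in each GFP+ library than in either GFP- library, and *Tek* had the larger fold change. *Kdr* was at 6.50 and 5.68 CPM in GFP+ cells and at 20.7 and 21.6 CPM in GFP- cells (log2 fold change -1.78, SE 0.15, adjusted p = 0.000214, edgeR). *Flt1* was at 4.12 and 3.33 CPM against 12.4 and 11.2 CPM (log2 fold change -1.64, SE 0.19, adjusted p = 0.000894, edgeR). Both VEGF receptors were lower in each GFP+ library than in either GFP- library.

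*Emcn*, which encodes the sialomucin endomucin of capillary and venous endothelium, showed the largest difference of all 10 genes at P1. It was at 5.18 and 4.02 CPM in GFP+ cells and at 285 and 215 CPM in GFP- cells, a 53.1-fold lower level (log2 fold change -5.73, SE 0.22, adjusted p = 1.71e-05, edgeR). *Eng*, which encodes endoglin, a co-receptor for ligands of the BMP and TGF-beta families, was at 4.92 and 3.91 CPM against 112 and 97.4 CPM, 23.2-fold lower (log2 fold change -4.53, SE 0.16, adjusted p = 1.40e-05, edgeR). *Pecam1*, which encodes the junction protein CD31, was at 5.35 and 4.33 CPM against 12.0 and 11.0 CPM, 2.33-fold lower (log2 fold change -1.22, SE 0.19, adjusted p = 0.00263, edgeR). The 3 surface proteins thus spanned the range of the 7 endothelial genes, from the largest to the smallest fold change, with no overlap of libraries between the fractions. Which GFP- cells supplied the RNA of *Emcn* and *Eng* was not tested.

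**Figure D1:**
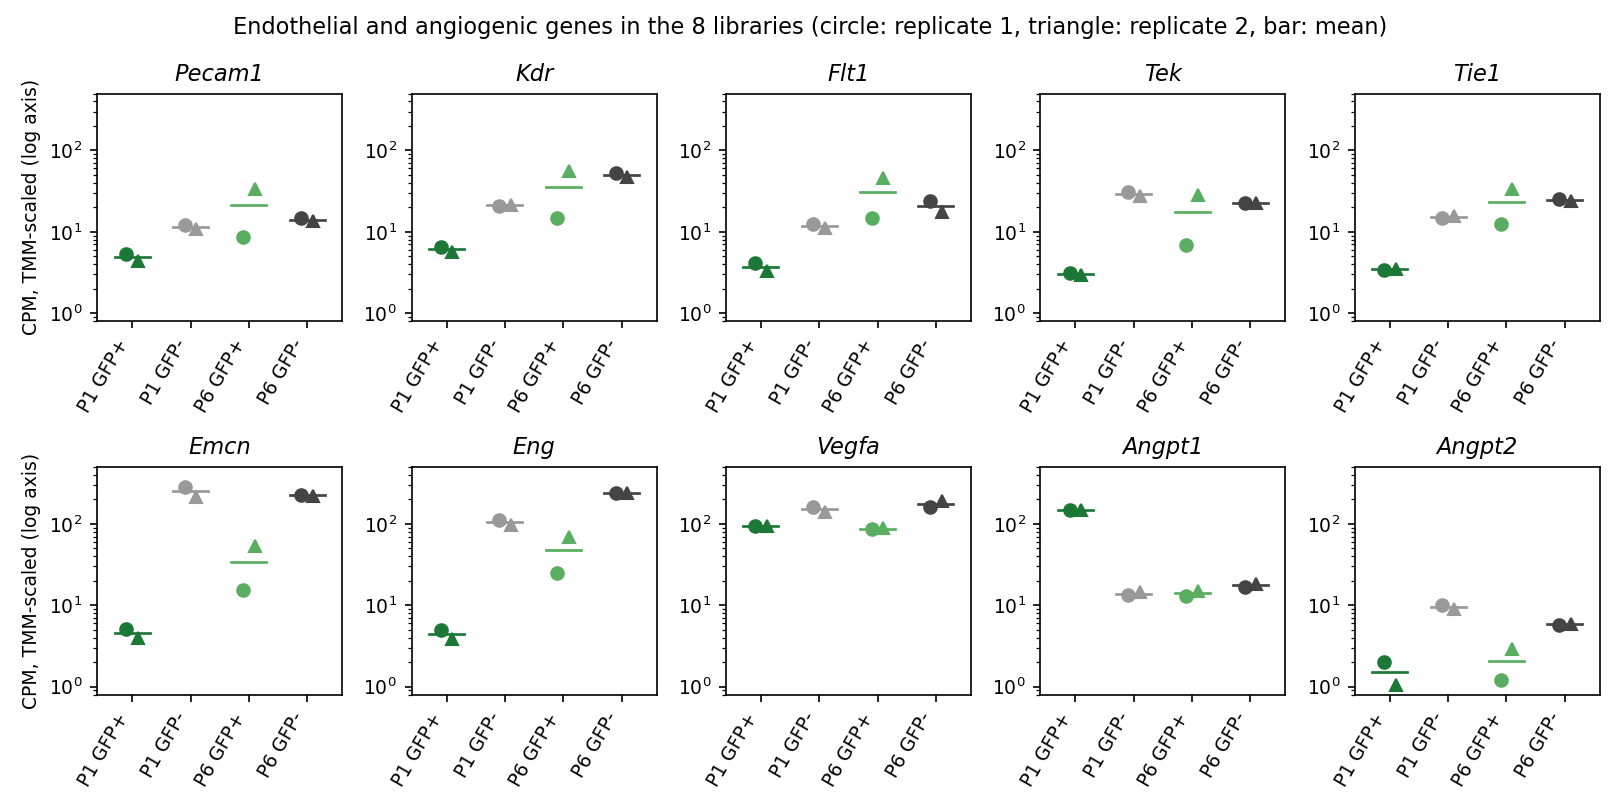
Level of each of the 10 genes in the 8 libraries, in CPM scaled by TMM on a log axis, for the P1 GFP+, P1 GFP-, P6 GFP+ and P6 GFP- groups; circles are replicate 1, triangles replicate 2 and bars the mean of 2. *Angpt1* stands near 147 CPM in P1 GFP+ cells and between 13.0 and 18.1 CPM in the other groups, and the 2 P6 GFP+ libraries lie far apart for the 7 endothelial receptors and surface proteins.

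Most other markers of endothelial cells were also lower at P1. Of 20 such markers, all 20 were measured in each library, 14 passed the test as lower in GFP+ cells and 0 as higher, with a median log2 fold change of -1.75. Of all genes tested, 20.7% passed as lower. *She* and *Erg* had the largest differences (log2 fold change -3.74, SE 0.24, and -3.17, SE 0.19). By contrast, *Vwf* was at 111% and 114% of the P1 GFP- mean in the P1 GFP+ libraries, and *Egfl7* at 89.9% and 93.3%. Of 11 tested markers of pericytes and smooth muscle, the cells that wrap vessels, 8 were lower and 0 higher, led by *Des* and *Cspg4* (log2 fold change -5.10 and -4.79). Blood cell markers were lower for 11 of 12 genes, and lymphatic endothelial markers for 3 of 3 tested.

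The regions before the start sites of the genes are shown for genes on either side of that gap, *Emcn* and *Eng* with the largest differences, and *Kdr*, *Flt1* and *Vegfa* with smaller ones. Sequences came from a RefSeq promoter table of build GRCm38.p6, which held 7 of the 10 genes in 8 entries. *Pecam1*, *Angpt1* and *Angpt2* had no entry. Each is the 250 bases before the RefSeq start site, 5' to 3' along the gene, placed in the NCBIM37 genome by exact match. Capitals mark the hexamers CAGGAA and CCGGAA on either strand (read as TTCCTG and TTCCGG on the other), short core motifs bound by ETS factors, a family that includes regulators of endothelial genes. The 2 hexamers do not overlap each other in these windows. Other hexamers that end in GGAA were not searched, so GAGGAA in the *Eng* and *Flt1* windows, on either strand, stands unmarked.
Emcn, chr3:137003792-137004041, + strand: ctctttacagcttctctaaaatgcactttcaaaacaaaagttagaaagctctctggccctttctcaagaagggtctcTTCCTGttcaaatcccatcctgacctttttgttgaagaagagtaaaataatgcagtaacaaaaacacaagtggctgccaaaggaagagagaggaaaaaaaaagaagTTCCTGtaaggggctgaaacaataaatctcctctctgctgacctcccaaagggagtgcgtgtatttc
Eng, chr2:32501865-32502114, + strand: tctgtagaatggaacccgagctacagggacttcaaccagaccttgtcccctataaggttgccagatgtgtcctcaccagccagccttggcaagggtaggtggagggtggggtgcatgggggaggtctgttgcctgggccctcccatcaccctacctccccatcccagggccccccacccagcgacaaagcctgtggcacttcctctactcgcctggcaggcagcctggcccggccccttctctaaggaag
Kdr, chr5:76374481-76374730, - strand: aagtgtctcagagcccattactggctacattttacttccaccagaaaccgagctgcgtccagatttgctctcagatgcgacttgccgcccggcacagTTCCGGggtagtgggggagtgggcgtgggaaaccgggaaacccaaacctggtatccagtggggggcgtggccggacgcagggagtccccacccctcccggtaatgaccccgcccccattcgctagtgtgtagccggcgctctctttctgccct
Flt1, chr5:148537588-148537837, - strand: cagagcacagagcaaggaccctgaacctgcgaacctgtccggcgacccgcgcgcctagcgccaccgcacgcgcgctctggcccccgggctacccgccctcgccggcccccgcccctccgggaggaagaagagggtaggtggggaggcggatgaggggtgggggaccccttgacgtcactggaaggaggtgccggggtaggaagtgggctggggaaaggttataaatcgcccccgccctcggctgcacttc
Vegfa, chr17:46169327-46169576, - strand: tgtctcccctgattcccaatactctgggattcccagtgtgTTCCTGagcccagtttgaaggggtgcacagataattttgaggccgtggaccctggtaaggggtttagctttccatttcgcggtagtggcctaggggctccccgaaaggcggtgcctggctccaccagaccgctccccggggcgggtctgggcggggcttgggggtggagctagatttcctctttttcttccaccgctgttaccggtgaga
*Emcn* held 2 such hexamers, at 173 and 67 bases before the start site, *Kdr* held 1 and *Vegfa* held 1, while *Eng* and *Flt1* held 0 in these windows. *Tek* held 2 and *Tie1* held 1. The further *Vegfa* entry, whose start site lies 7214 bases into the gene, held 0. At least 1 was present in 35.1% of the 32851 promoter windows of the table. The matches describe the letters, and binding was not tested.

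Within a library, levels can be compared between genes per length of their exons (RPKM). In P1 GFP+ cells *Angpt1* had the highest level, with a mean of 34.6 RPKM, then *Vegfa* with 21.9 RPKM, and the other 8 genes lay between 0.322 and 1.14 RPKM. *Eng* and *Pecam1* in that order did not differ beyond the spread of their libraries, nor did *Emcn* and *Kdr*, nor *Angpt2* and *Flt1*. In P1 GFP- cells *Emcn* came first at 46.3 RPKM, followed by *Vegfa* at 35.1 and *Eng* at 27.1, each apart from the next. The receptors lay well below, *Tek* at 6.20, *Tie1* at 3.12, *Kdr* at 2.91 and *Flt1* at 1.02 RPKM, and *Angpt1* at 3.27 RPKM overlapped *Tie1*.

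At P6 the endothelial receptors and *Pecam1* had no common place relative to GFP- cells, because the 2 GFP+ libraries lay on either side of them, while *Emcn*, *Eng*, *Vegfa*, *Angpt1* and *Angpt2* were lower in both GFP+ libraries. None of the 10 genes passed edgeR's quasi-likelihood test between GFP+ and GFP- cells (0 of 10, beside 12.9% of the 18294 genes tested). By DESeq2, 3 of the 10 passed the adjusted threshold, beside 25.5% of all genes. Of the 20 other endothelial markers 0 passed by edgeR (median log2 fold change 0.69). The libraries of the fractions lay apart for 5 of the 10 genes, beside 72.7% of all genes tested. The median log2 fold change was -0.37 over the 10 genes and -0.02 over all genes tested.

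The VEGF receptor *Kdr* was at 14.9 and 56.5 CPM in the P6 GFP+ libraries, on either side of the 53.5 and 46.5 CPM in GFP- cells (log2 fold change -0.44, SE 0.57, adjusted p = 0.590, edgeR). *Flt1* was at 14.6 and 46.3 CPM against 23.7 and 17.6 CPM (log2 fold change 0.61, SE 0.52, adjusted p = 0.412, edgeR). Replicate 1 lay below the GFP- libraries and replicate 2 above them for both receptors. *Tek* was at 6.97 and 28.4 CPM against 22.6 and 22.4 CPM, *Tie1* at 12.5 and 33.6 CPM against 25.5 and 24.2 CPM, and *Pecam1* at 8.71 and 33.7 CPM against 14.9 and 13.4 CPM. The log2 fold changes of these genes were -0.30 (SE 0.59), -0.07 (SE 0.44) and 0.63 (SE 0.58), with adjusted p of 0.732, 0.923 and 0.449 (edgeR). For all 5 of these genes the GFP+ libraries straddled the GFP- libraries.

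*Emcn* and *Eng* kept apart at P6 in both replicates. *Emcn* was at 15.4 and 53.6 CPM in GFP+ cells against 226 and 223 CPM in GFP- cells (log2 fold change -2.66, SE 0.57, adjusted p = 0.0187, edgeR). *Eng* was at 24.9 and 69.9 CPM against 239 and 241 CPM (log2 fold change -2.30, SE 0.48, adjusted p = 0.0176, edgeR). Neither passed the threshold, although every GFP+ library lay below every GFP- library. Among the ligands, *Vegfa* was at 87.7 and 87.9 CPM against 159 and 194 CPM (log2 fold change -0.98, SE 0.18, adjusted p = 0.0121, edgeR), the lowest p of the 10. *Angpt1* was at 13.0 and 15.2 CPM against 17.0 and 18.1 CPM (log2 fold change -0.29, SE 0.20, adjusted p = 0.307, edgeR), and *Angpt2*, with 20 and 86 reads, was at 1.20 and 2.94 CPM against 5.73 and 5.94 CPM (log2 fold change -1.42, SE 0.45, adjusted p = 0.0577, edgeR). The P6 GFP+ libraries agreed on *Vegfa* and *Angpt1* while they differed several-fold on the endothelial genes.

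Leaving out 1 P6 GFP+ library at a time, with the lone library taken to vary like the others, gave 7 of 10 genes past the test without replicate 2, beside 40.5% of all genes tested, and 5 without replicate 1, beside 29.2%. Without replicate 2 the 7 genes were all lower in GFP+ cells, among them *Emcn* (log2 fold change -3.84), *Eng* (-3.24), *Kdr* (-1.72), *Tek* (-1.67) and *Tie1* (-0.97). Without replicate 1, *Pecam1* (log2 fold change 1.34) and *Flt1* (1.26) were higher in GFP+ cells, and *Emcn* (-1.98), *Eng* (-1.69) and *Vegfa* (-0.92) were lower. *Emcn*, *Eng* and *Vegfa* were thus lower in GFP+ cells whichever P6 GFP+ library was left out, while *Pecam1*, *Flt1*, *Kdr*, *Tek* and *Tie1* took the sign of the library that was kept.

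**Figure D2:**
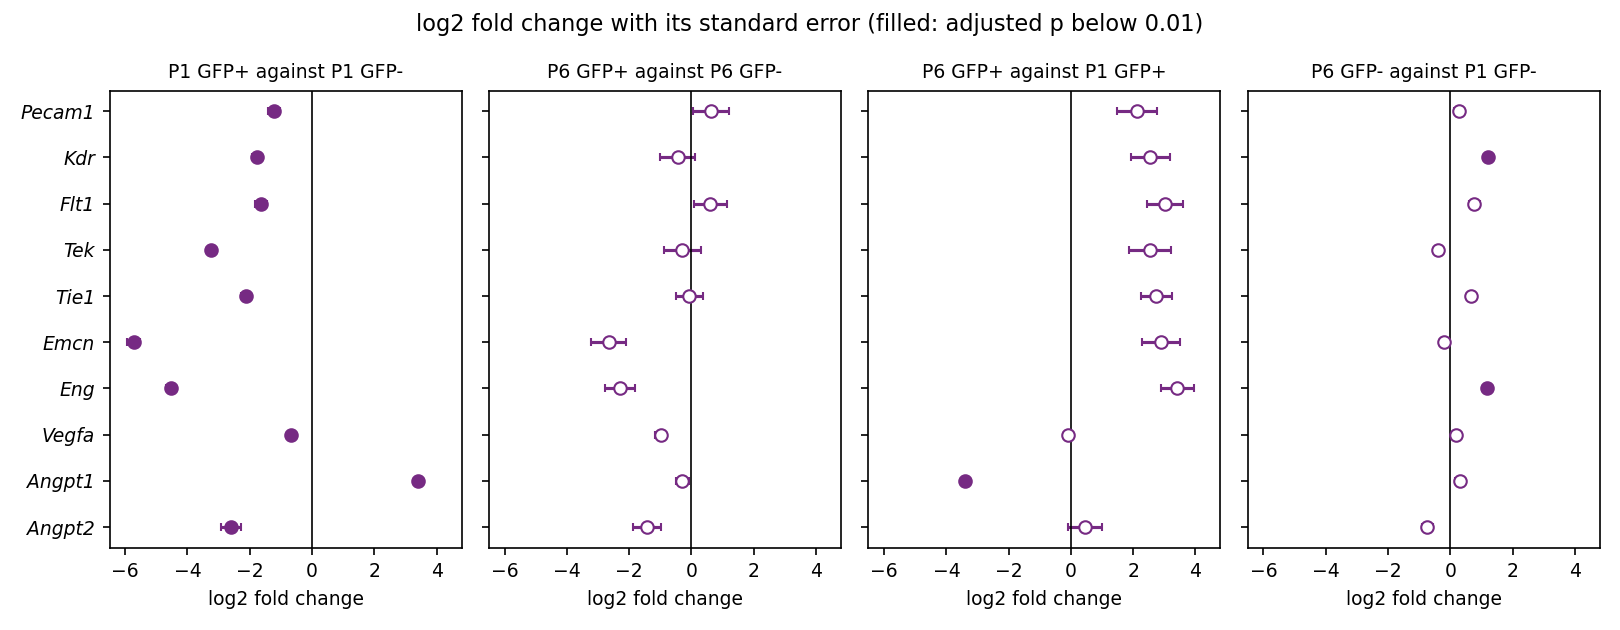
log2 fold change of each gene in the 4 comparisons of groups, with its standard error as the horizontal bar; filled points had an adjusted p below 0.01 by edgeR. All 10 points are filled for the fractions at P1, none at P6, *Angpt1* for age in GFP+ cells, and *Kdr* and *Eng* for age in GFP- cells.

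Markers of other cells were also higher in replicate 2 than in replicate 1 of the P6 GFP+ group. The level in a GFP+ library was expressed as a percent of the mean of the GFP- libraries of the same age. The median over the 7 endothelial genes was 22.4% and 22.7% in the P1 replicates, 31.0% in P6 replicate 1 and 126% in P6 replicate 2. Over the 20 other endothelial markers it was 31.3%, 27.6%, 76.2% and 216%. In that order of libraries, it was 14.1%, 12.1%, 14.0% and 37.2% over pericyte markers, 5.02%, 4.12%, 7.45% and 19.2% over blood cell markers, and 25.6%, 12.7%, 52.5% and 126% over Schwann cell markers.

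The summed level of the 20 other endothelial markers was 139 CPM in P6 GFP+ replicate 1 and 415 CPM in replicate 2, against 235 and 225 CPM in P6 GFP- cells, 56.3 and 50.2 CPM in P1 GFP+ cells and 166 and 171 CPM in P1 GFP- cells. None of the 20 was at 0 in any library. The sum of the 12 blood cell markers was 68.5 and 157 CPM in P6 GFP+ cells against 643 and 948 CPM in P6 GFP- cells, and 24.0 and 27.1 CPM in P1 GFP+ cells against 412 and 352 CPM in P1 GFP- cells, with none at 0. Pericyte and smooth muscle markers summed to 122 and 317 CPM in P6 GFP+ cells, with 1 of 12 at 0 in replicate 1, against 862 and 976 CPM in P6 GFP- cells, and to 236 and 255 CPM in P1 GFP+ cells against 709 and 621 CPM in P1 GFP- cells. Most of the P1 GFP+ sums came from 1 gene, *Pdgfrb*, at 209 and 229 CPM against 442 and 361 CPM in P1 GFP- cells. Schwann cell markers summed to 1182 and 2402 CPM in P6 GFP+ cells against 1509 and 1702 CPM in P6 GFP- cells, and to 413 and 345 CPM in P1 GFP+ cells against 674 and 724 CPM in P1 GFP- cells. Of the P1 GFP+ sums, *Sox10*, which the cochlear epithelium also expresses, made up 272 and 275 CPM, above its 87.8 and 136 CPM in P1 GFP- cells. The part of endothelial or other cells carried into the GFP+ fraction in the values of the 10 genes was not tested.

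**Figure D3:**
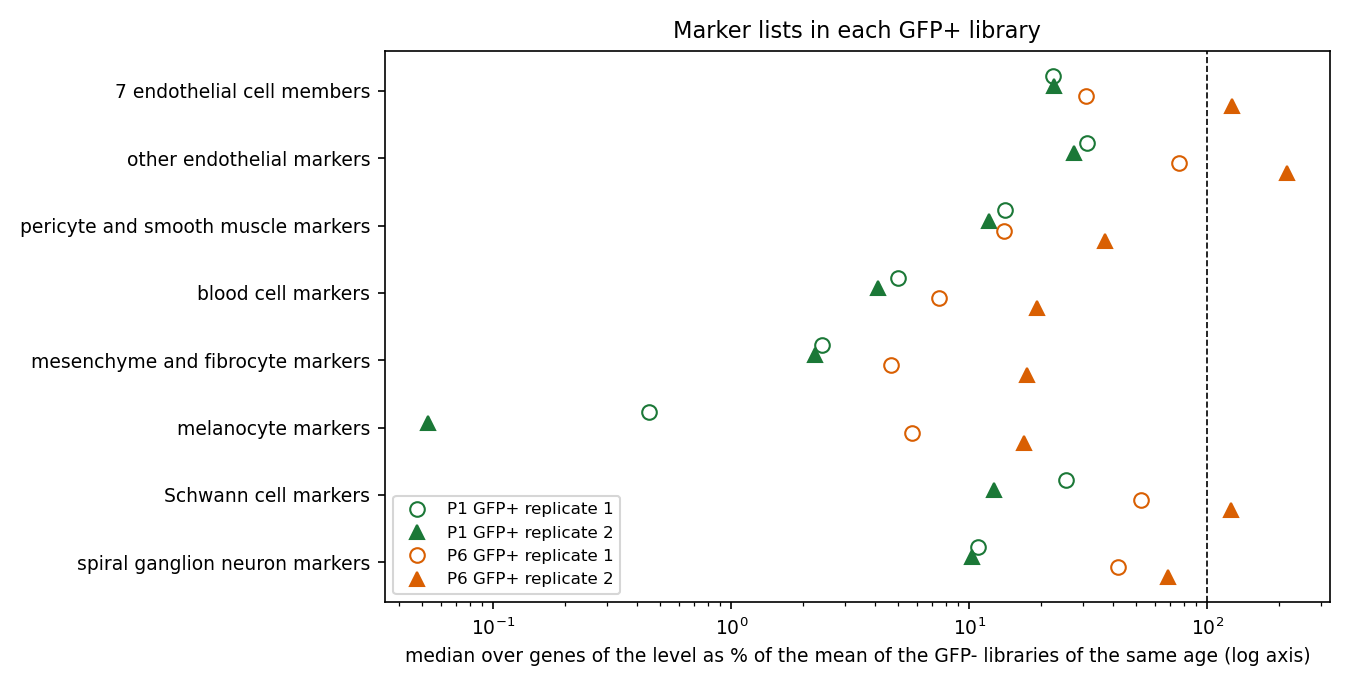
Median, over the genes of each list, of the level in a GFP+ library as a percent of the mean of the GFP- libraries of the same age, on a log axis; green points are P1 and orange points P6, open circles replicate 1 and filled triangles replicate 2, and the dashed line marks 100%. P6 replicate 2 lies to the right of the other libraries in every list and passes 100% for the 7 endothelial genes (126%), the other endothelial markers (216%) and the Schwann cell markers (126%).

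Ratios between genes within a library are free of the scaling between libraries. *Cdh5*, which encodes the junction protein VE-cadherin, stood to *Pecam1* per exon length at 1.51 and 1.56 in P1 GFP+, 1.99 and 2.28 in P1 GFP-, 1.54 and 1.72 in P6 GFP+, and 2.27 and 2.06 in P6 GFP- libraries. *Emcn* stood to *Pecam1* at 0.772 and 0.741 in P1 GFP+ and 1.41 and 1.27 in P6 GFP+ libraries, but at 19.0 and 15.7 in P1 GFP- and 12.1 and 13.3 in P6 GFP- libraries. The ratio of *Emcn* to *Pecam1* thus separated the fractions at both ages, and the P6 GFP+ replicates gave nearly the same ratio although their levels differed several-fold.

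*Eng* stood to *Pecam1* at 1.02 and 1.01 in P1 GFP+ and 3.19 and 2.32 in P6 GFP+ libraries, against 10.5 and 9.90 in P1 GFP- and 17.9 and 20.1 in P6 GFP- libraries. *Tek* stood to *Pecam1* at 0.539 and 0.629, then 0.732 and 0.773, in the GFP+ libraries of P1 and P6, against 2.37 and 2.30, then 1.39 and 1.53, in the GFP- libraries. *Kdr* stood to *Flt1* between 1.62 and 4.21 in all 8 libraries. The gap between the fractions was wide for *Emcn* and *Eng* and narrow for *Cdh5*, all relative to *Pecam1*. The ratios are descriptions with no test. As a percent of the GFP- mean, *Emcn* was at 2.07% and 1.61% in P1 GFP+ and 6.88% and 23.9% in P6 GFP+ libraries. In that order, *Eng* was at 4.70%, 3.73%, 10.4% and 29.1%, and *Cdh5* at 33.2%, 27.6%, 43.6% and 189%. The median over mesenchyme and fibrocyte markers was 2.39%, 2.24%, 4.69% and 17.5%. Whether cells other than endothelial cells supplied *Emcn* and *Eng* RNA was not tested.

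**Figure D4:**
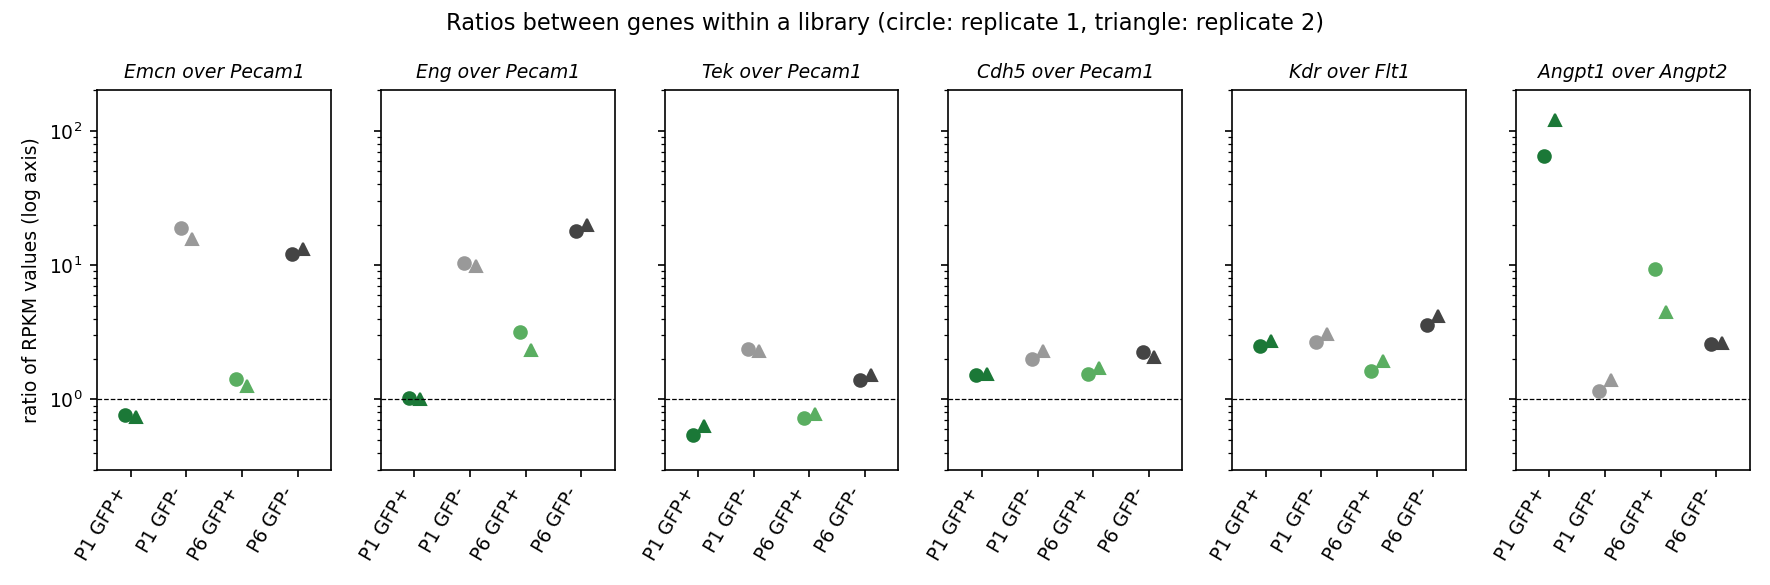
Ratio of the RPKM values of pairs of genes within each of the 8 libraries, on a log axis, by group; circles are replicate 1 and triangles replicate 2, and the dashed line marks a ratio of 1. *Emcn* over *Pecam1* lies between 0.741 and 1.41 in the GFP+ libraries and between 12.1 and 19.0 in the GFP- libraries, while *Cdh5* over *Pecam1* lies between 1.51 and 2.28 in all 8.

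Between P1 and P6 in GFP+ cells, *Angpt1* fell and no other of the 10 genes passed the edgeR test on these 4 libraries, a count that depended on the test and the libraries. It dropped from 148 and 146 CPM at P1 to 13.0 and 15.2 CPM at P6, a 10.5-fold decrease (log2 fold change -3.39, SE 0.14, adjusted p = 0.00176, edgeR). This was 1 of 10 genes, beside 4.81% of the 17213 genes tested. By DESeq2 it was 8 of 10, beside 17.2% of all genes, with no filter on low counts 8, beside 15.6%, with all 8 libraries in 1 fit 6, beside 12.3%, and without P1 GFP+ replicate 1 it was 5, beside 4.35%. The libraries of the ages lay apart for 9 of the 10 genes, beside 69% of all genes tested. The fall of *Angpt1* kept a log2 fold change between -3.51 and -3.28 and stayed past the threshold in all 10 alternatives run.

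The 7 endothelial genes had positive values in the same comparison, with log2 fold changes from 2.13 (*Pecam1*, SE 0.64, adjusted p = 0.0729, edgeR) to 3.42 (*Eng*, SE 0.53, adjusted p = 0.0155, edgeR), none past the threshold. Both P6 GFP+ libraries lay above both P1 GFP+ libraries for all 7. With replicate 2 of P6 left out, the 7 genes passed the test with log2 fold changes from 0.83 (*Pecam1*) to 2.47 (*Eng*), as did 43.2% of all genes tested. With replicate 1 left out, they passed with values from 2.77 (*Pecam1*) to 3.95 (*Eng*), beside 35.3% of all genes tested. The 20 other endothelial markers had a median log2 fold change of 2.69 in this comparison, with 0 of 20 past the test, and the medians were 2.83 over blood cell markers (0 of 12), 1.86 over pericyte markers (1 of 10, *Kcnj8*, log2 fold change 2.54) and 3.83 over Schwann cell markers (0 of 6). The median was 2.54 over the 10 genes and -0.0024 over all genes tested, of which 4.81% passed. *Vegfa* did not pass across age in GFP+ cells, at 93.8 and 94.5 CPM and then 87.7 and 87.9 CPM (log2 fold change -0.11, SE 0.11, adjusted p = 0.492, edgeR). *Angpt2* gave 0.46 (SE 0.56, adjusted p = 0.582, edgeR) with overlapping libraries.

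In GFP- cells, *Kdr* and *Eng* rose from P1 to P6. *Kdr* went from 20.7 and 21.6 CPM to 53.5 and 46.5 CPM, a 2.31-fold rise (log2 fold change 1.21, SE 0.12, adjusted p = 0.00148, edgeR). *Eng* went from 112 and 97.4 CPM to 239 and 241 CPM, a 2.24-fold rise (log2 fold change 1.17, SE 0.12, adjusted p = 0.00147, edgeR). These were 2 of the 10 genes, beside 7.38% of the 18920 genes tested, and 0 passed a 4-fold change, beside 1.85%. By DESeq2 5 of the 10 passed, beside 17.3% of all genes. *Kdr* and *Eng* lost the call with all 8 libraries in the fit, beside 4% of all genes that passed there, and without P6 GFP- replicate 1, and *Eng* also without P6 GFP- replicate 2. Of the 20 other endothelial markers, 2 rose in GFP- cells, *Ptprb* (log2 fold change 1.54, SE 0.18) and *Cd93* (0.77, SE 0.13), and 0 fell. Of the 12 pericyte and smooth muscle markers 3 rose, led by *Acta2* (2.00, SE 0.32) and *Rgs5* (1.43, SE 0.13), and 4 of 12 blood cell markers rose.

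The other receptors did not pass in GFP- cells. *Tie1* had a log2 fold change of 0.67 (SE 0.13, adjusted p = 0.0157, edgeR), *Flt1* of 0.78 (SE 0.18, adjusted p = 0.0297, edgeR) and *Tek* of -0.41 (SE 0.13, adjusted p = 0.0724, edgeR). *Tek* was the lone receptor with lower values at P6, 22.6 and 22.4 CPM against 30.9 and 27.5 CPM. *Angpt2* had a log2 fold change of -0.73 (SE 0.19, adjusted p = 0.0371, edgeR), from 10.1 and 8.96 CPM to 5.73 and 5.94 CPM, with no overlap of libraries. *Pecam1* (0.27), *Angpt1* (0.30), *Vegfa* (0.20) and *Emcn* (-0.19) had adjusted p between 0.186 and 0.429 (edgeR). The ages lay apart for 8 of the 10 genes, beside 64.4% of all genes tested, with *Emcn* and *Vegfa* overlapping, and the median log2 fold change was 0.29 over the 10 genes and -0.02 over all genes tested.

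In RPKM, *Eng* was the highest of the 10 genes in P6 GFP- cells at 62.0, followed by *Emcn* at 41.5 and *Vegfa* at 41.1, which overlapped each other. *Kdr* at 6.87, *Tie1* at 5.06, *Tek* at 4.78 and *Angpt1* at 4.12 RPKM followed in an order with no overlap between neighbours. In P6 GFP+ cells *Vegfa* led at 20.4 RPKM, and the next 7 genes, from *Eng* at 12.3 to *Angpt1* at 3.30 RPKM, each overlapped the next in that order.

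The change from P1 to P6 in how far the fractions differed was tested as an interaction term of age with fraction in a fit of the 8 libraries. It passed for *Angpt1* alone of the 10 genes in the edgeR fit (log2 difference -3.72, SE 0.18, adjusted p = 0.000193, edgeR), beside 1.93% of the 19233 genes tested. *Emcn* (3.06, SE 0.67, adjusted p = 0.0364, edgeR), *Tek* (2.92, SE 0.72, adjusted p = 0.0535, edgeR), *Eng* (2.23, SE 0.56, adjusted p = 0.0574, edgeR) and *Tie1* (2.05, SE 0.54, adjusted p = 0.0648, edgeR) had positive values short of the threshold. A pass at P1 and a miss at P6 therefore does not by itself show for these genes that the fractions differed less at P6. Without P6 GFP+ replicate 2, *Emcn* (1.88), *Tek* (1.55) and *Eng* (1.27) passed beside *Angpt1*, as did 5.81% of all genes tested, and without replicate 1, 8 of the 10 did, beside 6.96%. By DESeq2 6 of the 10 passed, beside 7.67% of all genes, and with no filter 8, beside 8.45%. *Flt1* (2.22), *Pecam1* (1.83), *Kdr* (1.32), *Angpt2* (1.17) and *Vegfa* (-0.33) had adjusted p between 0.0854 and 0.385 (edgeR). The median was 1.94 over the 10 genes and 0.03 over all genes tested.

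The ratio of the angiopoietin ligands was lower in both P6 than in both P1 GFP+ libraries. The ratio of *Angpt1* to *Angpt2* per exon length was 64.7 and 121 in P1 GFP+ libraries, 9.36 and 4.47 in P6 GFP+, 1.15 and 1.40 in P1 GFP-, and 2.57 and 2.63 in P6 GFP- libraries. The first of these rest on the low counts of *Angpt2*. At P1, 1 of the 7 genes of the angiopoietin and Tie pathway was higher in GFP+ cells (*Angpt1*) and 6 were lower. This was beside 37.3% of all genes tested in either direction. The lower ones included *Svep1*, which encodes a large extracellular protein (log2 fold change -5.55, SE 0.22). *Angpt4*, another ligand of TIE2, was also lower but had 2 reads in each P1 GFP+ library, against 36 and 34 in P1 GFP- cells, too few to size the difference. At P6, 1 of the 7 passed, beside 12.9% of all genes tested. It was again *Angpt4*, with 5 and 10 reads in GFP+ against 249 and 313 in GFP- libraries (log2 fold change -3.79, SE 0.37). In GFP- cells *Angpt4* rose from P1 to P6 (2.76, SE 0.35), as did *Ptprb*, which encodes the endothelial phosphatase that restrains TIE2, and in GFP+ cells 1 of 6 tested changed, *Angpt1*. Across age, 7.38% of all genes tested passed in GFP- cells and 4.81% in GFP+ cells.

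Of the 10 genes of the VEGF ligands, receptors and co-receptors, 2 were higher and 6 lower in GFP+ cells at P1. The share of all genes tested that passed there was 37.3%. The higher ones were other ligands, *Vegfc*, the main ligand for lymphatic vessels (log2 fold change 1.67, SE 0.16), and *Pgf*, which encodes placental growth factor (1.27, SE 0.24). The co-receptor *Nrp1* (log2 fold change -4.51, SE 0.15) and the lymphatic receptor *Flt4* (-2.40, SE 0.33) were the furthest below. At P6 and across age in GFP+ cells 0 of the 10 passed by edgeR, beside 12.9% and 4.81% of all genes tested. In GFP- cells 5 rose, led by *Vegfc* (log2 fold change 1.22, SE 0.18) and *Kdr*, and 1 fell, *Figf*, which encodes VEGF-D (-1.98, SE 0.31). In GFP- cells 7.38% of all genes tested passed across age. The interaction passed for *Vegfc* alone (-2.20, SE 0.26), beside 1.93% of all genes.

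Of the 12 tested genes around endoglin and BMP9, 3 were higher and 7 lower in GFP+ cells at P1, beside 37.3% of all genes. *Acvrl1*, which encodes the receptor ALK1 that works with endoglin, was lower with *Eng* (log2 fold change -4.20, SE 0.20), and *Id1* (2.09, SE 0.10) and *Smad6* (1.51, SE 0.11), which respond to BMP signals in many cells, were higher. At P6, where 12.9% of all genes tested passed, *Smad6* was higher (1.41, SE 0.20) and *Smad9* lower (-1.78, SE 0.27). In GFP- cells 7 of the 12 rose with age, led by *Smad9* (1.38, SE 0.20) and *Id3* (1.37, SE 0.12), and 1 fell, *Smad5* (-0.83, SE 0.14). The share of all genes tested that passed across age in GFP- cells was 7.38%. In GFP+ cells 0 of the 12 passed across age, beside 4.81% of all genes, and 0 in the interaction, beside 1.93% (edgeR).

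Genes of vessel sprouting and patterning were divided at P1, with 5 of 16 tested higher and 7 lower in GFP+ cells. Of all genes tested, 37.3% passed at P1 and 12.9% at P6. *Nrarp*, a Notch target and feedback regulator (log2 fold change 4.41, SE 0.26), and *Thbs1*, which encodes the angiogenesis inhibitor thrombospondin-1 (3.48, SE 0.15), were higher, and *Thbs2* (-4.08, SE 0.20) and *Sema3e* (-3.57, SE 0.55) lower. *Sema3e* was at 15.1 and 46.2 CPM in the P1 GFP- libraries, higher in the replicate with more of the neuron markers, whose part in its value was not tested. At P6, 3 of 17 were higher, led by *Nrarp* (2.68, SE 0.19) and *Cxcr4* (1.74, SE 0.25), and 3 lower, led by *Thbs2* (-3.14, SE 0.44) and *Cxcl12* (-2.78, SE 0.40). In GFP+ cells *S1pr1* rose with age (1.16, SE 0.12) while *Thbs1* (-2.38, SE 0.22) and *Unc5b* (-1.27, SE 0.14) fell, and in GFP- cells *S1pr1* (1.62, SE 0.19) and *Thbs1* (1.55, SE 0.17) were among 3 that rose while *Unc5b* (-0.66, SE 0.11) fell. Across age, 4.81% of all genes tested passed in GFP+ cells and 7.38% in GFP- cells. The interaction passed for *Thbs1* alone (-3.95, SE 0.32), beside 1.93% of all genes.

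*Vegfa* is a target of the hypoxia-inducible factors, and 14 genes of oxygen sensing and the hypoxia response were therefore read beside it. At P1, 4 were higher in GFP+ cells, led by *Ankrd37* (log2 fold change 1.72, SE 0.26) and the glucose transporter gene *Slc2a1* (1.58, SE 0.13), and 6 lower, led by *Epas1*, which encodes HIF-2 alpha (-2.93, SE 0.16), and *Car9* (-2.81, SE 0.29). The share of all genes tested that passed was 37.3% at P1 and 12.9% at P6. At P6 *Ankrd37* was higher (2.35, SE 0.34) and *Pdk1* lower (-1.53, SE 0.18). Across age, *Hif3a* fell in GFP+ cells (-1.67, SE 0.17), and in GFP- cells 5 rose, led by *Adm* (2.06, SE 0.27) and *Epas1* (1.55, SE 0.12), and 1 fell, *Hif3a* (-1.66, SE 0.12). Of all genes tested, 4.81% passed across age in GFP+ cells and 7.38% in GFP- cells. In the interaction 0 of 14 passed, beside 1.93% of all genes (edgeR). Whether the response to oxygen bore on the level of *Vegfa* was not tested.

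Over the 8 libraries, the log2 levels of the 7 endothelial genes had Pearson's r between 0.648 and 0.976, with a median of 0.912 over their 21 pairs. *Emcn* followed *Angpt2* (r = 0.929) and *Vegfa* (0.834) more closely than *Pecam1* (0.655) or *Flt1* (0.648). It followed *Eng* (0.963) and *Tek* (0.946) more closely still. These values describe 8 libraries in 4 groups that share the sort. The genes whose levels followed the mean of the 7 most closely were *Reln* (r = 0.997), *Rasgrp3* (0.991), *2310046A06Rik* (0.991), *2010110P09Rik* (0.990) and *Ehd2* (0.990), of 4827 genes compared. For *Angpt1* they were *Gm12198* (r = 0.996), *Tal1* (0.994), *Tacr1* (0.992), *Nod2* (0.988) and *Syt6* (0.988), all at their highest in P1 GFP+ cells, as with *Syt6* at a mean of 374.9 CPM there and between 4.31 and 5.30 CPM elsewhere. For *Vegfa* they were *Trip10* (r = 0.990), *Eml3* (0.985), *Snrpb2* (0.984), *Trafd1* (0.982) and *Hps5* (0.979). For *Angpt2* they were *Postn* (r = 0.996), *Tcf19* (0.992), *Mme* (0.992), *Gm12688* (0.991) and *Meox2* (0.990), all highest in P1 GFP- cells.

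In the NCBIM37 annotation all 10 are protein-coding genes. *Eng* (chr2:32502115-32538189) shares 124 exon bases with *Ak1* on the same strand and 61 with *Fpgs* on the other, and *Angpt1* (chr15:42256273-42508523) shares 283 with *Gm17473* on the other strand. Whether strand was used in counting is not given in the sources used here, so the counts of those genes are uncertain to that extent. The other 8 share no exon bases with another gene. They are *Pecam1* (chr11:106515531-106611942), *Tek* (chr4:94405980-94541667), *Tie1* (chr4:118143796-118162666), *Angpt2* (chr8:18690263-18741562), *Emcn* (chr3:137004031-137095149), *Kdr* (chr5:76328852-76374483), *Flt1* (chr5:148373180-148537587) and *Vegfa* (chr17:46153942-46169326).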

How the data were processed

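RNA-seq counts were analysed in 8 libraries, 2 from each of the 4 groups that the sample labels give by age and GFP fraction. Each deposited file holds the authors' raw read counts for Ensembl genes, made from reads aligned to mm9 (NCBIM37); the submitters' processing notes name TopHat 1.4.0, HTSeq and DESeq 1.9.2, and the counting mode and strand setting are not given in the sources used here. Lines that name no gene (5 per library) were left out, and 64.7% to 76.2% of the listed counts were on genes. Symbols, positions and exon lengths were read from the annotation of NCBIM37 (34391 of 36536 genes matched).

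Pairs of groups were compared in fits of 4 libraries by edgeR 4.0.16 in R 4.3.3 (filterByExpr with a minimum count of 10 and a minimum total of 15, TMM, quasi-likelihood test, Benjamini-Hochberg adjustment over all genes tested). A gene passed the test at an adjusted p below 0.01, and the share that also changed more than 4-fold is given beside it. These are part of the study's criteria, whose RPKM minimum and use of a further program (Cufflinks) were not applied here. The standard error is the log2 fold change divided by the square root of F. The interaction term was fitted on 8 libraries. Levels are counts per 1000000 of the TMM-scaled library size over 8 libraries (factors 0.914 to 1.09), or RPKM by union exon length. Figures were drawn with matplotlib 3.10.9 in Python 3.11.15.

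All 10 genes are described; from the pathway and marker lists, up to 2 genes per direction with the largest change past the test are named in a comparison, and the 5 genes most like each pattern by Pearson's r of log2 CPM (prior count 0.5, mean of at least 1 CPM). Some lists are described only in some comparisons. The genes and lists were chosen with earlier results of these data known. The procedure was run on simulated counts with the same spread for every gene and library. The real libraries differed in spread, so that run cannot show how the test behaves on them. Alternatives were DESeq2 size factors, library totals, the DESeq2 test (1.42.0), no filter, 1 fit of 8 libraries, blocking on replicate number and leaving out each library.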

Additional observations from a re-analysis of the deposited data

Results flagged for a closer look

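By edgeR, the ratio of GFP+ to GFP- cells differed between the ages for *Angpt1* alone of the 10 genes. This was a test of the difference itself, with Benjamini-Hochberg adjustment over all genes tested, of which 1.93% passed. By DESeq2 6 of the 10 passed, beside 7.67% of all genes, and with no filter on low counts 8 did, beside 8.45%. *Angpt1* had a log2 difference of -3.72 (interaction of age and fraction, SE 0.18, adjusted p = 0.000193, edgeR's quasi-likelihood test). Its level was 10.7-fold higher in GFP+ cells at P1, whereas at P6 the log2 fold change was -0.29 (SE 0.20, adjusted p = 0.307, edgeR). The value lay between -3.84 and -3.59 in all 13 alternatives run and kept its call in each. Groups of 2 libraries allow no test for an outlying library.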

How the results depend on the processing

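The number of the 10 genes past the test at P1 stayed between 7 and 10 in the settings that kept every library. It was 7 with all 8 libraries in 1 fit, beside 31.5% of all genes tested, and *Pecam1*, *Kdr* and *Flt1* lost the call there. *Pecam1*, *Flt1* and *Vegfa* lost it in some fits with a single library left out. The other counts moved, and the cause was not tested beyond what the left-out libraries show. Between the fractions at P6 the count was 0, beside 12.9% of all genes tested. The DESeq2 test gave 3 (25.5%), edgeR without its low-count filter gave 4 (20%), and 1 fit of the 8 libraries gave 3 (26.8%). The P6 count also moved with a library left out. Across age in GFP+ cells the count was 1, beside 4.81% of all genes tested. It was 8 with the DESeq2 test (17.2%), 8 with no filter (15.6%) and 6 with all 8 libraries (12.3%), and it moved with a library left out. Across age in GFP- cells it was 2, beside 7.38% of all genes tested. It was 5 with the DESeq2 test (17.3%), 4 with no filter (14.8%) and 0 with all 8 libraries (4%), and it moved with a library left out. For the interaction it was 1, beside 1.93% of all genes tested. It was 6 with the DESeq2 test (7.67%) and 8 with no filter (8.45%), and it moved with a library left out. DESeq2 size factors and library totals changed none of the 5 counts. With the replicate number as a block, the count was 2 at P6 (beside 15.5% of all genes tested) and 3 across age in GFP+ cells (6.27%). It was 10 at P1 (34.1%), 2 across age in GFP- cells (5.5%) and 1 for the interaction (0.785%). The correlation of same-numbered deviations was 0.02 at P1, 0.09 at P6, -0.09 in GFP+ and -0.24 in GFP- cells. Such values cannot show whether same-numbered libraries were paired, which the sample labels do not say. In GFP- cells a crossed replicate block, chosen after seeing the data, gave 4, beside 16.2% of all genes tested.

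Of 540 alternative values of single genes, 424 kept direction and side of the threshold, 96 came to pass it, 13 no longer did and 7 turned in sign, all 7 with a library left out. At P6 the ranges over left-out libraries were -0.68 to 1.34 for *Pecam1*, -1.72 to 0.27 for *Kdr*, -0.47 to 1.26 for *Flt1*, -1.67 to 0.43 for *Tek* and -0.97 to 0.52 for *Tie1*. They were -0.40 to 1.00 for *Angpt2* across age in GFP+ cells and -0.40 to 0.022 for *Emcn* across age in GFP- cells.

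Over all genes, 2363 passed at P6, against 4797 with the DESeq2 test, 5309 with no filter, 5157 with all 8 libraries and 0 to 7765 with a library left out. Across age in GFP+ cells 828 passed, against 3011, 4090, 2361 and 137 to 7531. Across age in GFP- cells 1397 passed, against 3050, 3993, 769 and 249 to 3029, and 3063 with the crossed block. For the interaction 372 passed, against 1418 with the DESeq2 test, 2400 with no filter, 151 with the block and 28 to 1407. At P1 6972 passed, against 3675 to 9798 with a library left out. Library totals in place of TMM moved the median of all genes to -0.21 across age in GFP- cells, with 564 higher and 575 lower calls in place of 954 and 443, and to 0.16 for the interaction, with 192 higher and 127 lower in place of 182 and 190. They gave 1282 higher and 514 lower calls at P6 in place of 1413 and 950. *Angpt2* rests on 20 to 92 reads in the GFP+ libraries, so its values there are rough.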

Other observations

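Markers of further cell types filled out the make-up of the fractions. At P1, mesenchyme and fibrocyte markers were lower in GFP+ cells for 6 of 7 genes, melanocyte markers for 6 of 6, Schwann cell markers for 5 of 6 with 1 higher, and spiral ganglion neuron markers for 5 of 6, with the P1 GFP- replicates at 155 and 530 CPM in sum, while the supporting cell markers were higher for 8 of 8 and hair cell markers for 5 of 6. At P6 the counts were 3 of 7 lower for mesenchyme, 4 of 6 lower for melanocytes, 1 of 6 higher for Schwann cells and 0 of 6 for neurons by edgeR, with 7 of 8 supporting cell markers and 4 of 6 hair cell markers higher. Of all genes tested, 37.3% passed at P1 and 12.9% at P6 in either direction. The median level in P6 GFP+ replicate 2 as a percent of GFP- cells was 17.5% over mesenchyme markers, 17.0% over melanocyte markers and 68.5% over neuron markers, against 4.69%, 5.73% and 42.2% in replicate 1.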
